A study of Mus musculus with 2 samples.

Results

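The genes described here are 4 ligands of the bone morphogenetic protein (BMP) family and 6 genes that answer BMP signalling in mesenchyme, in ureters of mouse embryos. The ligands were Bmp2, Bmp4, Bmp5 and Bmp7, and the response genes were Id1, Id2, Id3, Id4, Smad6 and Smad7. They were chosen by name, and every non-control probe carrying one of these names was taken, which gave 11 probes for 10 genes out of 39429 probes. Of these probes 10, 1 for each gene, were well above background and were among the 20506 genes tested.

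Ureters were dissected at stage E14.5 from NMRI mouse embryos of 2 genotypes. The Gata2cKO embryos were Tbx18(cre/+);Gata2(fl/fl), with Cre recombinase made from 1 Tbx18 allele and both Gata2 alleles flanked by loxP sites, and the control embryos were Tbx18(+/+);Gata2(fl/?), without Cre and with a further Gata2 allele that the label does not define. Cre from Tbx18 is active in the mesenchyme around the ureter and not in its epithelium, so the whole ureter RNA also held cells that keep Gata2, and in such RNA fewer cells of a type and less RNA per cell cannot be told apart. Each of 2 two-colour Agilent arrays held 1 RNA of each genotype, female on array 1 with Gata2cKO in Alexa Fluor 647 and control in 555, and male on array 2 with the dyes exchanged. Sex and dye orientation therefore changed together and cannot be told apart. Cre and the changed Tbx18 allele were in the Gata2cKO RNAs alone, so their part in a ratio cannot be told apart from that of Gata2. How many embryos stood behind an RNA is not given in the labels, and the arrays' number limits the precision.

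BMP ligands are secreted dimers that bind paired type I and type II receptor kinases, which phosphorylate Smad1, Smad5 and Smad9. With Smad4 these enter the nucleus and raise a small set of direct target genes, among them the Id genes and the inhibitory Smads, which feed back on the receptors. In the developing ureter Bmp4 from the mesenchyme is needed for smooth muscle formation and for the epithelium to become urothelium.

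Per channel, 66% to 69.4% of gene spots were well above background, and no spot was saturated. The median spot signal in 647 was 753.6 for Gata2cKO and 754 for control, and in 555 it was 428.1 for Gata2cKO and 433.1 for control. The probe of Gata2 was no lower for Gata2cKO than for control, with a mean log2 ratio of 0.44 ± 0.15 (SD, n = 2; limma adjusted p = 0.409). Its 1 probe may lie outside the deleted part, which the labels do not give, so it does not check the labels, and each direction rests on the dyes they state. Tbx18 (0.40 ± 0.36) and Tshz3 (0.52 ± 0.12), genes of the ureteric mesenchyme, Upk3a (0.51 ± 0.53) of the urothelium and Acta2 (-0.85 ± 0.27) of smooth muscle were all well above background in both RNAs. Genes of the ureteric mesenchyme went both ways. Of 10 tested, 5 were higher and 3 lower in Gata2cKO on both arrays, against 27% and 26.2% of all genes, and 2 had opposite signs.

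Probe positions are those of the scanner files, on mm9. An mm9 gene annotation was not used, so exons and untranslated regions were not assigned. The Id3 probe is shown because it alone among the 11 spans more of the genome than its own length. Its 60 bases cover 175 bases at chr4:135700075-135700249, 115 more than the probe itself.
Id3 probe: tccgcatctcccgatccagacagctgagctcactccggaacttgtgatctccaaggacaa

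The stretches before the start of Id4 and Id2 are shown because, of the windows searched, these alone hold the palindrome GGCGCC, a core bound by BMP Smads. RefSeq promoter entries on GRCm38.p6 were matched for 6 of the 10 genes (Bmp4, Bmp5, Id2, Id3, Id4 and Smad6), and the 250 bases before the start were searched. GGCGCC stood 148 bases before the start in Id4 and 231 bases before it in Id2, and in 9.59% of all 32851 windows of that length. G and C made up 75.6% of the Id4 window and 62.8% of the Id2 window, and the share over all windows was not matched for this. AGATAA, a form of the GATA motif, was on neither strand of the 6 windows and in 9.99% of all windows. Other forms of the GATA motif were not searched. A match is a description of letters and not of binding. The capitals mark GGCGCC, Id4 lies at chr13:48260866-48261115 on the plus strand and Id2 at chr12:25096093-25096342 on the minus strand.
Id4: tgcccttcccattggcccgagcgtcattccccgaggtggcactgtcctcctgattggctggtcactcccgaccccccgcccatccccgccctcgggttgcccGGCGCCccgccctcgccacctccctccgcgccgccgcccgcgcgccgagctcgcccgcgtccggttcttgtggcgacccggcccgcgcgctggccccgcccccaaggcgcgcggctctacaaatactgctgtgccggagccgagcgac
Id2: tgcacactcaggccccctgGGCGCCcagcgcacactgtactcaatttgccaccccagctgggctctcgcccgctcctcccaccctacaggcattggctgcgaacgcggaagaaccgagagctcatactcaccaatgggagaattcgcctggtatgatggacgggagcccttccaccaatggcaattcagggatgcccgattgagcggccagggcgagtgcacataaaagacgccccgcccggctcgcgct

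None of the 10 genes passed an adjusted p of 0.05 over all genes tested with limma, against 0.0878% of the 20506 genes, and 1 of 10 had an unadjusted p under 0.05, against 7.17% of all genes. The 1 gene was Id4, which was higher in Gata2cKO on both arrays. Bmp4 and Smad6 were also higher on both arrays, against 27% of all genes, and Bmp7, Id1 and Smad7 were lower on both, against 26.2%. Bmp2, Bmp5, Id2 and Id3 had opposite signs on the arrays, as did 46.8% of all genes. The median of the 10 mean log2 ratios was 0.024, beside 0.0028 over all genes tested. These shares lie near those of all genes.

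**Figure D1:**
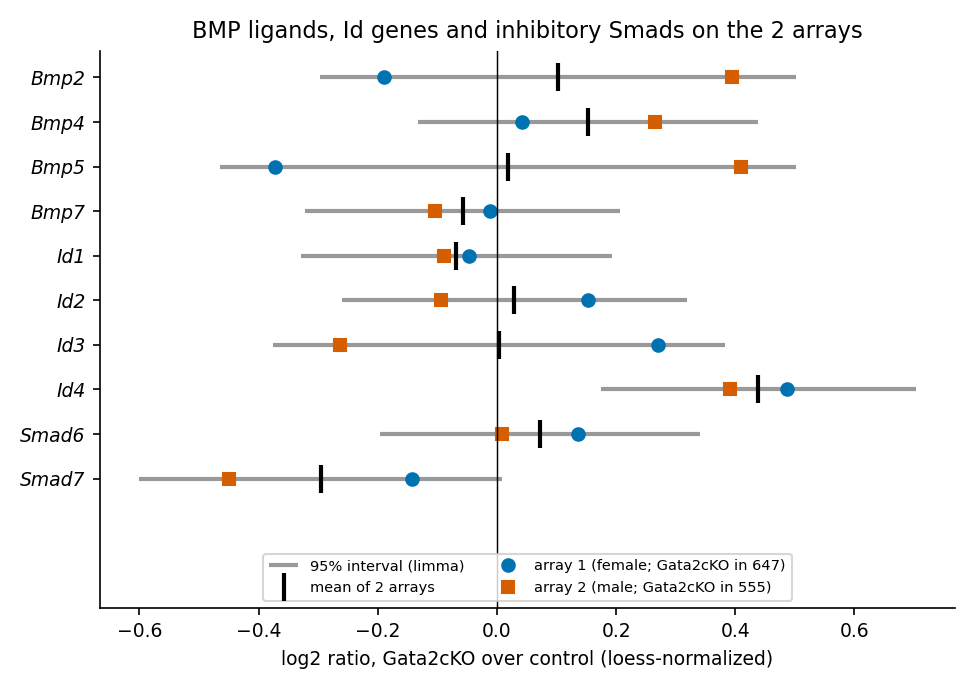
Log2 ratio of Gata2cKO over control after loess normalization (x axis) for each of the 10 genes (y axis). Circles are array 1, squares array 2, black ticks their mean and grey bars the 95% interval from limma. Id4 lies at 0.49 and 0.39, and the arrays fall on opposite sides of 0 for Bmp2, Bmp5, Id2 and Id3.

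Of the 10 genes, Id4 had the largest ratio. Id proteins have a helix-loop-helix domain but no DNA-binding region, and they tie up the E proteins that other helix-loop-helix factors need. The Id4 probe lies at chr13:48358668-48358727 on the plus strand. Its normalized intensity was 37210 and 41050 in Gata2cKO, against 26550 and 31310 in control, on arrays 1 and 2. Both Gata2cKO values lay above both control values, which held for 2 of the 10 genes and for 19.5% of all genes. The log2 ratios of 0.49 and 0.39 gave a mean of 0.44 ± 0.068 (SD, n = 2; limma adjusted p = 0.361), which is 1.36-fold with a 95% interval from 1.13 to 1.63. The SD was below the median of 0.118 over all genes.

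A mean ratio as far from 0 as that of Id4, in either direction, was found for 2.85% of the genes tested. Ratios of at least 0.39 on both arrays were found for 172 genes, or 0.839%, Id4 included. Id4 belonged to the brightest 25% of genes, in which the arrays went against each other across genes (r = -0.572 over 5127 genes, which are not independent replicates), and there 15 genes reached those ratios. The pair of Id4 ratios was shared, to within 0.1 on each array, by 71 other genes, so 2 arrays single out no gene as most like it.

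The same ordering was present in the unnormalized spot signals when each dye was read by itself. In 647 the Id4 signal was 52400 in Gata2cKO and 44130 in control, a log2 ratio of 0.25, and in 555 it was 28090 in Gata2cKO and 19310 in control, a log2 ratio of 0.54. Such a pair shares the dye but lies on different arrays and sets one sex against the other. These are the same spots as in the array ratios, paired in another way, so they are not separate evidence for Id4.

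**Figure D2:**
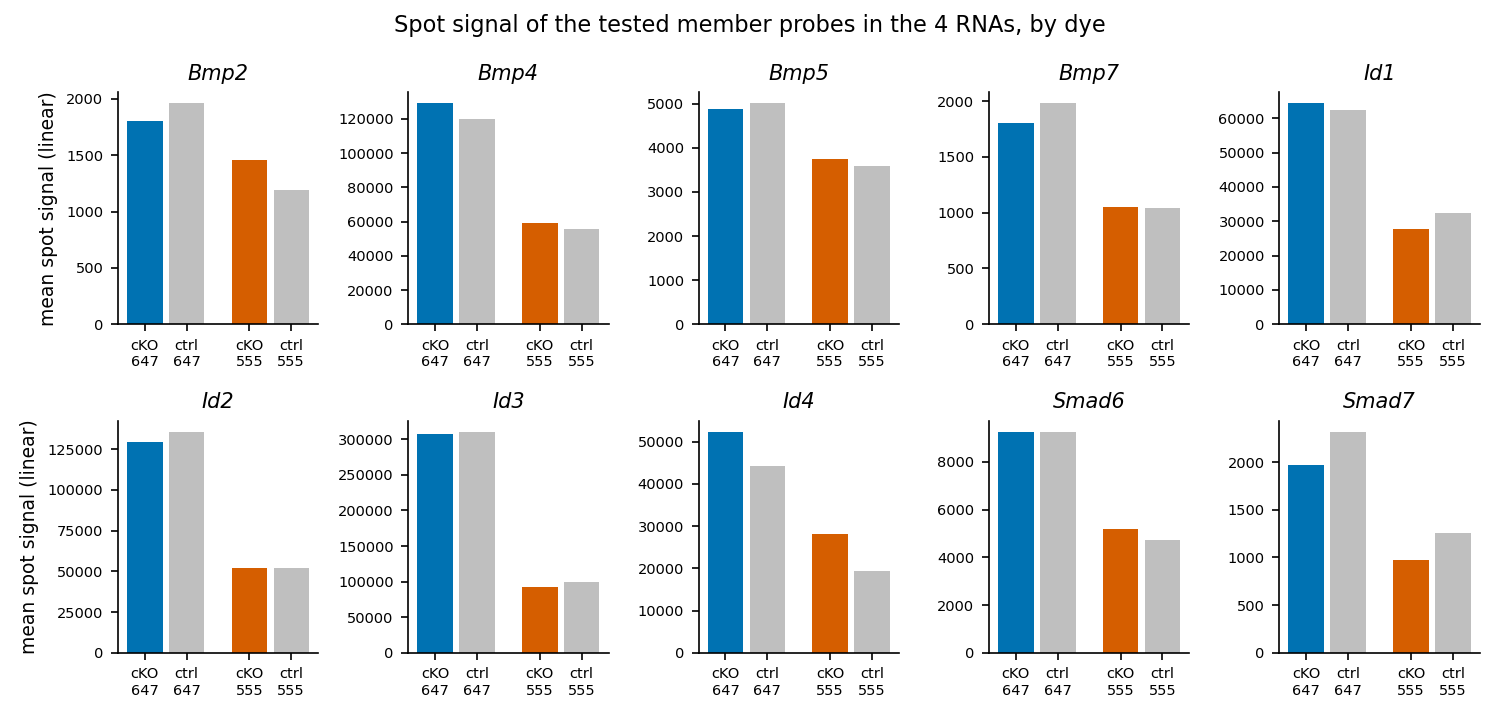
Mean spot signal on a linear scale (y axis, its own scale in each panel) of the tested probe of each gene in the 4 RNAs, as bars grouped by dye on the x axis. Coloured bars are Gata2cKO and grey bars control, with 1 spot per bar and no error bar. Id4 and Bmp4 were higher and Smad7 and Id3 lower in Gata2cKO in both dyes, and the other genes differed in direction between the dyes.

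The other Id genes lay nearer to 0. Id1 had intensities of 44550 and 41050 in Gata2cKO, against 46040 and 43660 in control, with log2 ratios of -0.048 and -0.089 and a mean of -0.068 ± 0.029 (SD, n = 2). On each array the Gata2cKO value was slightly the lower, while across arrays the groups overlapped. Id2 had 85220 and 82780 in Gata2cKO, against 76690 and 88360 in control, and its log2 ratios of 0.15 and -0.094 had opposite signs. Id3, whose probe was brighter than that of 98.1% of genes, had 193200 and 154300 in Gata2cKO, against 160200 and 185100 in control, with log2 ratios of 0.27 and -0.26 that cancelled in the mean (0.0037 ± 0.38, SD, n = 2). Limma's adjusted p was 0.961 for Id1, 0.990 for Id2 and 0.998 for Id3.

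The ratio of Id4 exceeded the mean of the other 3 Id genes by 0.36 on array 1 and 0.54 on array 2 (mean 0.45 ± 0.13, SD, n = 2). With 2 arrays an exact two-sided sign-flip test cannot go below p = 0.5, so this difference, noted after the values were seen, was not tested. The probes of Id1 (chr2:152563083-152563142, plus strand) and Id2 (chr12:25778904-25778963, minus strand) are different sequences from that of Id4, and levels were not compared between probes.

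Smad7 had the lowest ratio of the 10. It encodes an inhibitory Smad that blocks both BMP and TGF-beta receptors and is itself induced by them. Its intensity was 1496 and 1291 in Gata2cKO, against 1652 and 1762 in control, so that both Gata2cKO values lay below both control values, as in 18.9% of all genes. The log2 ratios of -0.14 and -0.45 gave a mean of -0.30 ± 0.22 (SD, n = 2; limma adjusted p = 0.701), or 0.815-fold with a 95% interval from 0.659 to 1.01. A mean as far from 0 was found for 7.18% of genes. In the authors' deposited table the mean had the opposite sign (0.13).

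Smad6, the inhibitory Smad that acts mainly on BMP receptors, had intensities of 6906 and 7003 in Gata2cKO, against 6281 and 6964 in control. Its probe lies at chr9:63800980-63801039 on the minus strand. The log2 ratios of 0.14 and 0.0080 had a mean of 0.072 ± 0.091 (SD, n = 2), smaller than the SD, with a 95% interval of the fold from 0.873 to 1.27 (limma adjusted p = 0.959). The intensities overlapped between the groups.

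Among the ligands Bmp4 was read by 2 probes. The bright probe, at chr14:47003391-47003450 on the minus strand, gave 84620 and 93700 in Gata2cKO, against 82230 and 77990 in control. Both Gata2cKO values were the higher, and the log2 ratios of 0.041 and 0.26 gave a mean of 0.15 ± 0.16 (SD, n = 2; limma adjusted p = 0.855), or 1.11-fold with a 95% interval from 0.913 to 1.35. Ratios at least as high as its lower one on both arrays were found for 18.6% of genes. The other probe, at chr14:47003198-47003257, was not well above background in either RNA on either array and gives no fold.

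Bmp2, a close relative of Bmp4, had 1383 and 1954 in Gata2cKO, against 1576 and 1487 in control, at chr2:133388260-133388319. Bmp5, a ligand of mesenchyme around the urinary tract, had 3677 and 5041 in Gata2cKO, against 4760 and 3794 in control, at chr9:75746444-75746503. For both genes Gata2cKO was lower than control on array 1 and higher on array 2, with log2 ratios of -0.19 and 0.39 for Bmp2 and of -0.37 and 0.41 for Bmp5. Their spots were thus brighter in 555 than in 647 on both arrays after loess. This dye term, as a log2 of 647 over 555, was -0.29 for Bmp2 and -0.39 for Bmp5, sizes reached by 5.6% and 3.08% of genes.

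Read within a dye, the Bmp5 signals were 4890 in Gata2cKO and 5016 in control for 647 and 3748 in Gata2cKO and 3594 in control for 555, which are log2 ratios of -0.037 and 0.061. For Bmp2 they were 1806 in Gata2cKO and 1962 in control for 647 and 1458 in Gata2cKO and 1187 in control for 555, log2 ratios of -0.12 and 0.30. The means over the arrays were 0.10 ± 0.41 for Bmp2 and 0.019 ± 0.55 for Bmp5 (SD, n = 2 each; limma adjusted p = 0.962 and 0.996). Id3 had a dye term of the other sign, 0.27, reached by 6.88% of genes, and Id2 one of 0.12. For these 4 genes an effect of sex cannot be told apart from one of dye.

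Bmp7, a ligand needed for kidney and eye development, had 1378 and 1405 in Gata2cKO, against 1389 and 1509 in control, at chr2:172695203-172695262. The log2 ratios were -0.012 and -0.10, with a mean of -0.058 ± 0.064 (SD, n = 2; limma adjusted p = 0.972). The values of the groups overlapped, and 3334 other genes had both ratios within 0.1 of these.

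For 8 of the 10 genes the 95% interval of the mean lay within 1.5-fold in either direction, the exceptions being Id4 and Smad7. The share of all genes with such an interval was not counted, so the count does not set these genes apart from others. These intervals borrow their spread from all genes, with a prior SD of 0.163. The SDs of Bmp2, Bmp5 and Id3 were larger, at 0.41, 0.55 and 0.38. Bmp5 was counted as within although its arrays read 0.773-fold and 1.33-fold.

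**Figure D3:**
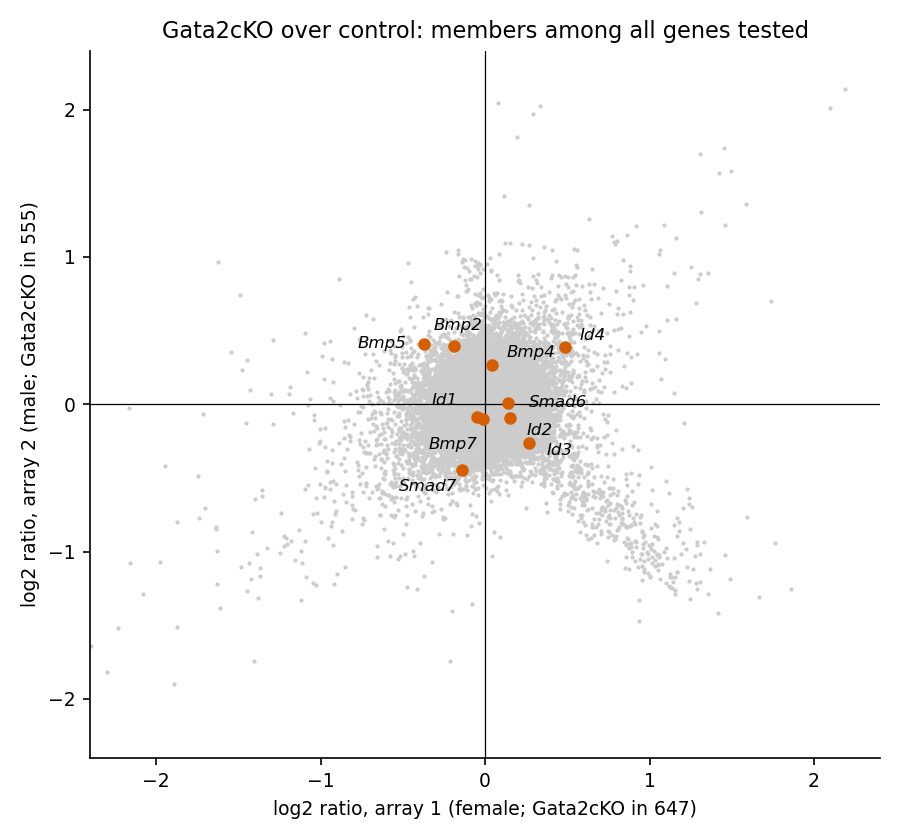
Log2 ratio of Gata2cKO over control on array 1 (x axis) against array 2 (y axis) for the 20506 genes tested (grey) and the 10 genes (orange, labelled). The axes end at 2.4 and leave out 2 genes. Id4 lies apart from the other 9 in the upper right, Bmp2 and Bmp5 in the upper left and Id3 in the lower right.

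In the authors' deposited table, a signed fold change of undocumented making, Id4 was again higher for Gata2cKO on both arrays, with log2 values of 0.43 and 0.61. In the authors' deposited table Bmp4 (0.31 and 0.82), Bmp5 (0.38 and 0.94) and Smad6 (0.17 and 0.18) were also higher on both, so 4 of the 10 were, against 21% of all genes. Bmp2 (-0.31 and -0.23) and Bmp7 (-0.43 and -0.40) were lower on both in the authors' deposited table, against 21.3% of all genes. Its columns correlated with the loess ratios at only 0.498 and 0.423 over 25657 probes. Its direction was taken from those signs, and its centring is unknown.

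The other genes of the pathway were described by lists of 64 genes, of which 58 were tested. Over all genes tested 1 rose and 0 fell, where 0.0878% of all genes passed, and 11, or 19%, had an unadjusted p under 0.05, against 7.17% of all genes. On both arrays 20.7% were higher and 29.3% lower, against 27% and 26.2% of all genes, and their median was -0.016. The 1 that rose was Sostdc1, whose secreted product binds BMPs and also restrains Wnt signalling. Its intensity was 7214 and 7192 in Gata2cKO, against 1687 and 1780 in control, a log2 ratio of 2.06 ± 0.058 (SD, n = 2; limma adjusted p = 0.0209). This call was lost with median centring, a loess span of 0.7, no background correction and the authors' deposited table, under each of which no gene passed.

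The other BMP and GDF ligands had a median of -0.28 over 9 genes. On both arrays 2 of them were higher and 6 lower in Gata2cKO, and none passed the threshold. Over all genes 27% were higher and 26.2% lower on both arrays, and 46.8% had opposite signs. Those shares also stand beside the counts of the other pathway lists that follow. Gdf6, a ligand of joint and eye development, had 200.7 and 229.6 in Gata2cKO, against 258.4 and 335.2 in control (log2 ratio -0.46 ± 0.13, SD, n = 2; limma adjusted p = 0.363). Its Gata2cKO values were both below the control values, as were those of Gdf5, another joint ligand, with 365.8 and 373.3 in Gata2cKO, against 500.9 and 472.5 in control. Such an order was found for 18.9% of all genes. Gdf5 had a mean log2 ratio of -0.40 ± 0.080 (SD, n = 2; limma adjusted p = 0.427), while its other probe gave -0.0062 and -0.28.

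BMP receptors and coreceptors lay near 0. Their median was -0.013 over 11 genes, with 2 higher and 1 lower in Gata2cKO on both arrays and 8 of opposite signs. The type II receptor gene Acvr2a had a mean log2 ratio of 0.27 and the type I receptor gene Acvr1 one of 0.20, with limma adjusted p-values of 0.677 and 0.816. The other Acvr1 probe had opposite signs on the arrays. The 11 signal transducers and their regulators had a median of 0.044. They included 3 with higher and 0 with lower values on both arrays, and 8 of opposite signs. Among the 3 were Smad9, a BMP-activated Smad that BMP also induces (0.26 and 0.26 on the arrays, limma adjusted p = 0.699), and the Smad corepressor gene Skil (mean 0.12, with its other probe at -0.020).

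Over 6 other BMP response genes the median was 0.15. In Gata2cKO 3 were higher and 1 lower on both arrays, and 2 had opposite signs. Smad9 is on this list and on that of the signal transducers, and was counted in both. The homeobox genes Msx1 and Msx2 were the furthest from 0. Msx1 had 1612 and 1496 in Gata2cKO, against 1053 and 1223 in control (log2 ratio 0.45 ± 0.23, SD, n = 2; limma adjusted p = 0.436), and Msx2 had 2176 and 3004 in Gata2cKO, against 1801 and 2189 in control (0.36 ± 0.13; limma adjusted p = 0.526). The Msx1 values did not overlap between the groups, and those of Msx2 did. Gata2cKO values all above control were found for 19.5% of all genes. Bambi and Runx2, also on this list, were not well above background. Of the 3 E protein genes whose products Id proteins bind, Tcf3 alone had the same sign on both arrays (mean -0.063), and Tcf4 and Tcf12 had opposite signs.

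The 19 extracellular modulators had a median of -0.065. In Gata2cKO 3 were higher and 8 lower on both arrays, and 8 had opposite signs. Beside Sostdc1, the antagonist gene Grem1, named after its values were seen, had 287.5 and 251.9 in Gata2cKO, against 176.4 and 163.6 in control (0.66 ± 0.058, SD, n = 2; limma adjusted p = 0.165).

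**Figure D4:**
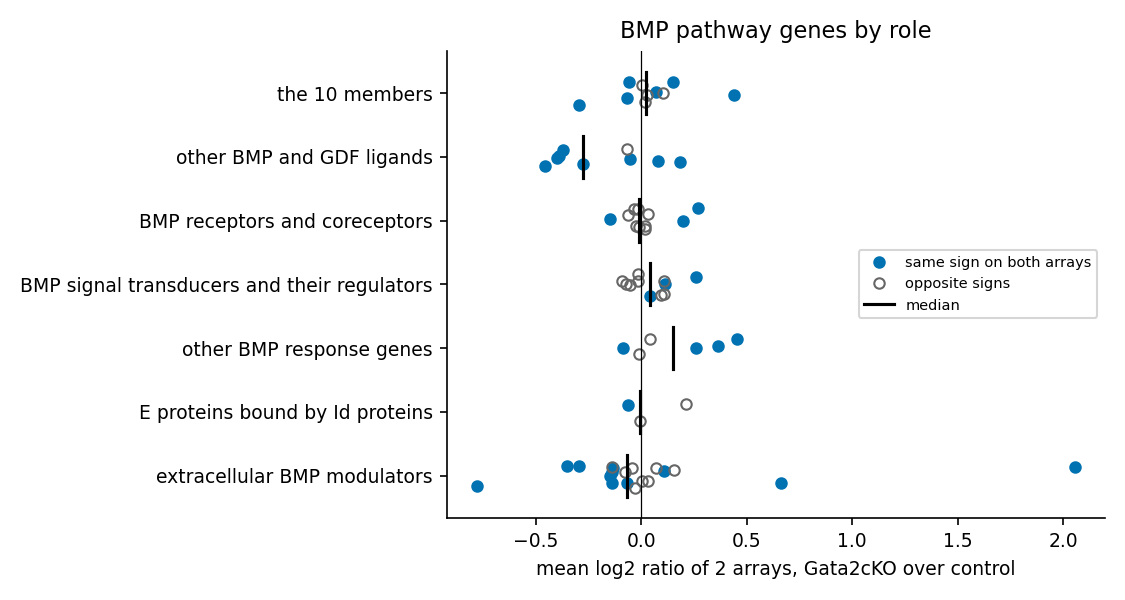
Mean log2 ratio over 2 arrays of Gata2cKO over control (x axis) for each gene tested, by its role in the BMP pathway (y axis). Filled points had the same sign on both arrays, open points opposite signs, and black ticks are medians, which run from -0.28 for the other ligands to 0.15 for the other response genes. Sostdc1 is the point at 2.06.

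Over 5 lists of cell type markers with 53 genes tested, 1 gene passed the threshold, the neuronal filament gene Prph, which fell (log2 ratio -1.35 ± 0.047, SD, n = 2; limma adjusted p = 0.0380). The shares of all genes to set beside the counts that follow are 27% higher and 26.2% lower on both arrays. The summed normalized intensity of 12 neuron and glia genes was 20470 and 20060 in Gata2cKO, against 41610 and 31830 in control, with 11 lower on both arrays. For 9 smooth muscle genes it was 58950 and 55710 in Gata2cKO, against 77160 and 81600 in control, with 8 lower on both, and for 8 macrophage genes 28350 and 29320 in Gata2cKO, against 37440 and 35860 in control, with all 8 lower on both. For 15 urothelial genes it was 341900 and 382800 in Gata2cKO, against 298200 and 355300 in control, with 10 higher on both and sums that overlapped. Endothelial genes went both ways, with 4 of 9 lower and 1 higher on both arrays and 4 of opposite signs. The part of these cell types in the values of Id4, Smad7 and the other genes was not tested.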

How the data were processed

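Two-colour Agilent arrays were scanned and read by the authors with Agilent Feature Extraction 10.7.3.1, per the file headers. The deposited intensity values are mean spot signals and median local backgrounds, not normalized. Processed signals and a log10 ratio of 647 over 555 were also made by that software, per the file headers. The authors' deposited value table is a signed fold change, used as a score on a log2 scale with its sign.

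Background was corrected by normexp (offset 50) and log ratios were loess-normalized within arrays (span 0.3) without weight on control spots and on outlier spots (255 and 178 gene spots). The sign of array 2 was flipped, so every ratio is Gata2cKO over control. Normalized intensities are per channel after loess and Aquantile. Probes well above background on both arrays in 1 of the RNAs (25657) were kept, and the brightest represented each gene. Accessions were named through a RefSeq table of GRCm38.p6 (26412 probes), the other 13017 keeping the file's name. Ratios were tested against 0, two-sided, with limma 3.58.1 in R 4.3.3 and Benjamini-Hochberg adjustment over 20506 genes, with 1 residual degree of freedom and a prior of 4.68 (SD 0.163). Figures used matplotlib 3.10.9. The method was tested on simulated data, which held no effect of dye or brightness. There 17.6% of 1.5-fold changes and 91.2% of 2-fold changes passed the threshold, so most changes of 1.5-fold were missed. Both arrays lay on 1 slide.

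Genes named beside the 10 were those past the threshold in a list, or else the 2 furthest from 0 with the same sign. The genes and lists were chosen with earlier results of these data known. One gene of these lists has its own value left out.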

Additional observations from a re-analysis of the deposited data

Results flagged for a closer look

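For 4 genes the female and the male array gave ratios of opposite sign, and this difference was not tested, since each sex was on 1 array and dye orientation changed with sex. The log2 ratios of Gata2cKO over control were -0.19 (female) and 0.39 (male) for Bmp2, and -0.37 (female) and 0.41 (male) for Bmp5. They were 0.15 (female) and -0.094 (male) for Id2, and 0.27 (female) and -0.26 (male) for Id3. Opposite signs were found for 46.8% of all genes tested. Id2 and Id3 belonged to the brightest 25% of genes, in which the arrays went against each other across genes (r = -0.572). The share of opposite signs among those bright genes was not counted, so 46.8% is not matched to Id2 and Id3.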

How the results depend on the processing

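Each member was recomputed under 11 alternatives, and none passed the threshold in the 9 that have a test. Aquantile, no filter on detection, the mean over detected probes and the trended and robust variance leave the ratios of these genes unchanged by construction. Under the other 5 with a test, 8 of 50 ratios changed sign, and with 1 array left 4 of 20 did. The 8 changes of sign were Bmp7 with the scanner software's processed signals (0.00080), Bmp5 (-0.0031), Id2 (-0.043) and Id3 (-0.078) with median centring, Id3 with a loess span of 0.7 (-0.021), and Bmp2 (-0.27), Id2 (-0.28) and Smad7 (0.13) in the authors' deposited table. With array 1 alone Bmp2 (-0.19) and Bmp5 (-0.37) changed sign, and with array 2 alone Id2 (-0.094) and Id3 (-0.26). Their cause was not tested. Id4 was positive under all 11, between 0.38 (median centring) and 0.52 (the authors' deposited table), with limma adjusted p-values from 0.141 to 0.9999 in the 9 with a test.

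Genes past the threshold over all genes numbered 18. They numbered 121 with the scanner software's processed signals, 54 without a filter on detection and 376 with a trended and robust variance. The count was 0 with median centring, a loess span of 0.7, no background correction and the authors' deposited table, with 492, 1123, 1407 and 972 genes at an unadjusted p under 0.05 in limma. As reported, 3 members and 3 member probes were higher on both arrays and 3 members lower. With processed signals 1 member was lower, and with median centring 1 member and 1 member probe were higher and 1 member lower. With only 1 array left, 5 members were higher and 5 lower, and 5 member probes higher, by either array. The fit of ratios is itself paired by array, so no further replicate block could be added.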
